A study of Mus musculus with 28 samples.

Results

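Endothelial identity genes are genes whose products mark or build the inner lining of blood vessels. The 10 genes described here are Tie1, Tek, Kdr, Flt1, Cdh5, Pecam1, Eng, Robo4, Vwf and Sox17. They were taken with every probe set of the 2 array designs that the annotation gives to exactly 1 of these symbols, which found 16 probe sets, 15 on design 430A and 1 on design 430B, of 45037 probe sets and 18193 named genes in all. Expression was measured in 14 samples of whole mouse kidney, each hybridised to both designs. Each null sample was the kidney pair of 1 embryo labelled as null for both Hoxa11 and Hoxd11, taken at E12.5, at E13.5 or at E16.5, and the labels do not give its strain. Wild type samples of the same stages came from CD-1 embryos with the kidneys pooled, and adult wild type samples were both kidneys of 1 mouse of unstated age. Each of the 7 groups held 2 samples, described as separate embryos or animals, though a wild type embryonic sample held pooled kidneys.

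Endothelial cells form the vessel wall. Kdr and Flt1 encode receptors for vascular endothelial growth factors, and Tie1 and Tek encode the receptors of the angiopoietin system, with angiopoietins binding the Tek protein. Cdh5 and Pecam1 encode adhesion proteins of the junctions between endothelial cells, Eng a co-receptor for TGF-beta family ligands, Robo4 a roundabout receptor of the endothelium, Vwf a clotting protein stored in endothelial cells and platelets, and Sox17 a transcription factor of arterial endothelium. In the developing kidney, vessels and their precursors spread through the mesenchyme around the branching ureteric bud and later form the capillaries of the glomeruli.

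Values are MAS5 signals on a linear scale, and each design has a floor at its 20th percentile, 86.1 on 430A and 148.1 on 430B. Log2 fold changes are from limma with their SE, n = 2 samples a group, and the words rose and fell are used where the adjusted p was under 0.05. Of the 16 probe sets, 14 passed the filter on low values, and every one of the 10 genes had at least 1 of them. For 3 of the 14, Tie1 1416238_at, Vwf 1435386_at and Sox17 1421657_a_at, the filter was passed through null groups alone, so these could enter the test only by being high there, and counts over the 14 are a description. The 2 that did not pass were Flt1 1454037_a_at and Cdh5 1422047_at. The whole kidney holds many cell types, and more endothelial cells cannot be told apart from more RNA of these genes in each cell.

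Hoxa11, one of the mutated genes, read 211 to 500.1 in the 6 null samples and 1940.0 to 3431 in the 6 wild type embryonic samples, while the Hoxd11 probe set did not pass the filter and gives no check. The actin control probe sets on 430A gave a 3'/5' ratio, which grows as amplified RNA gets shorter, of 1.72 ± 0.438 in null and 3.46 ± 0.495 in wild type embryonic samples (SD, n = 6 each, two-sided exact permutation p = 0.00217, the smallest that 6 against 6 allow). Median signal on 430A was 517 ± 31.0 in null and 432 ± 42.1 in wild type embryonic samples (exact permutation p = 0.00866). On 430B it was the lower in null, at 549 ± 121 against 688 ± 90.9 in wild type (p = 0.0498, same test), and the Gapdh 3'/5' ratio on 430A was 1.64 ± 0.283 in null and 2.55 ± 1.09 in wild type (exact permutation p = 0.0822). At no stage did null and wild type arrays share a day of scanning, so the day and the genotype cannot be told apart at any 1 stage, and the null E16.5 arrays alone were read on another scanner type. The run records of adult replicate 2 name the other design's chip for each of its 2 arrays, and adult results that are lost without that sample are given as such. Wild type embryonic samples were pooled kidneys of CD-1 embryos. Pooling and any difference of strain therefore cannot be told apart from the genotype either. With 2 arrays a group and design, the number of arrays limits the precision.

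The 10 endothelial genes, chosen with earlier results of these data known, were mostly higher in kidneys of null embryos. At E12.5, 11 of the 14 tested probe sets rose and 0 fell by limma (12 and 0 at an unadjusted p under 0.05), where 12.4% of all tested probe sets rose and 6.19% fell. At E13.5, 10 rose and 0 fell (10 and 0 unadjusted), against 14.4% rising and 8.97% falling among all. At E16.5, 7 rose and 1, a Sox17 probe set, fell, against 15.9% rising and 19.2% falling among all (9 and 1 unadjusted). Averaged over the 3 stages, 12 rose and 0 fell (13 and 0 unadjusted), against 23.4% rising and 23.5% falling among all. Probe sets that rose at every stage numbered 5, those of Tie1, Kdr, Robo4 and Vwf and Eng 1417271_a_at, against 3.63% of all probe sets. Of 29 other endothelial genes, read by 1 probe set each, 12, 10 and 11 rose at the 3 stages and 0, 1 and 4 fell.

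The median log2 fold change of the 14 probe sets was 1.62 at E12.5, 1.31 at E13.5 and 1.40 at E16.5, beside medians over all tested probe sets of -0.03, -0.02 and -0.22. In 8 of the 14, all 6 null samples lay above all 8 wild type samples, adult included, which 6.04% of all tested probe sets did. These were 1 probe set each of Tie1, Kdr, Flt1, Cdh5, Pecam1, Robo4, Vwf and Sox17. Among them Tie1, Vwf and Sox17 1421657_a_at passed the filter through null groups alone, so the count is a description. With the adult left out the separation held for 10, both of Eng added, against 8.04% of all. With no filter, 9 of the 16 rose at E12.5, 9 at E13.5 and 13 in the stage average, against 7.15%, 8.50% and 15.7% of all probe sets. At E16.5, 7 of the 16 then rose and 1 fell, beside 4526 and 5589 of all 45037.

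**Figure D1:**
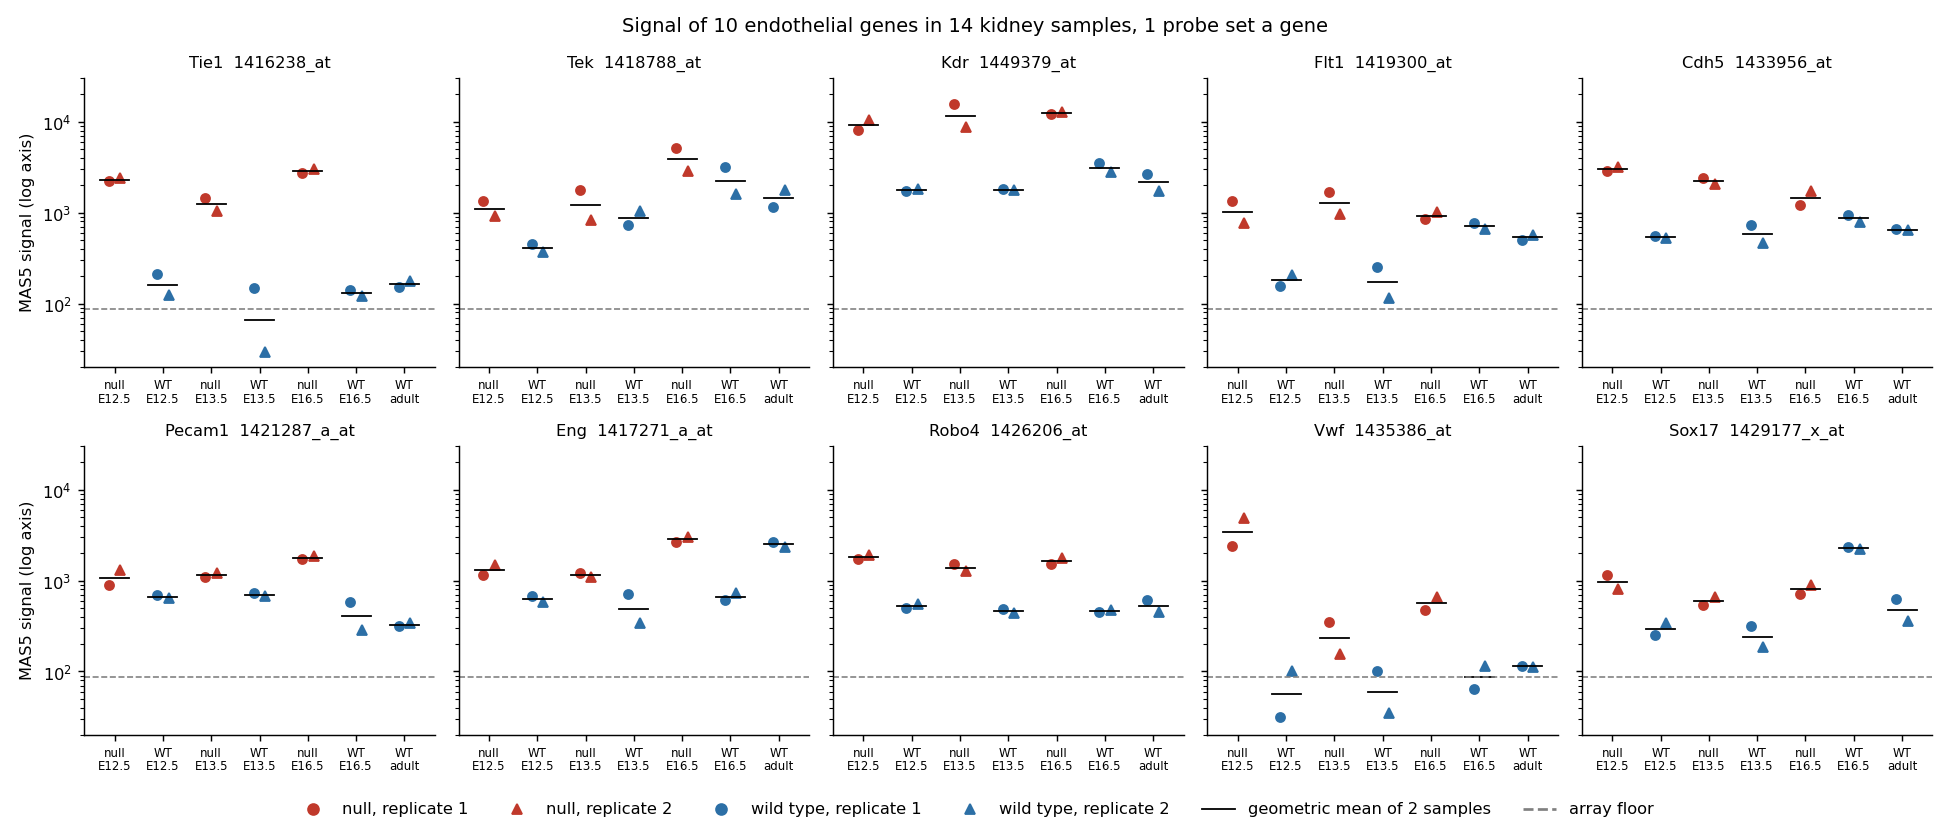
MAS5 signal (log axis) of 1 probe set for each of the 10 genes in the 14 samples, with null samples in red, wild type samples in blue, a black bar at the geometric mean of each group's 2 samples and a dashed line at the 430A floor of 86.1. In Tie1, Kdr, Flt1, Cdh5, Pecam1, Robo4 and Vwf every null sample lies above every wild type sample, while Tek, Eng and Sox17 1429177_x_at overlap between the genotypes when all stages and the adult are pooled.

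For a few of the genes, the sequence before their start sites is shown. RefSeq promoters, 250 bases before to 50 after the gene's start on GRCm38.p6, were given for 6 of the 10 genes: Eng, Flt1, Kdr, Robo4, Tek and Tie1. The letters searched were GGAA, the core of the sites that ETS transcription factors bind, on both strands, so that TTCC on the strand printed is a match to the other strand, and these letters are in capitals below. The 3 genes with large differences at every stage, Tie1 (chromosome 4, 118489800 to 118490099, minus strand), Kdr (chromosome 5, 75978406 to 75978705, minus strand) and Robo4 (chromosome 9, 37401722 to 37402021, plus strand), are set beside Tek (chromosome 4, 94739039 to 94739338, plus strand), whose difference was smaller. Each is written 5′ to 3′ along the gene's strand.
Tie1: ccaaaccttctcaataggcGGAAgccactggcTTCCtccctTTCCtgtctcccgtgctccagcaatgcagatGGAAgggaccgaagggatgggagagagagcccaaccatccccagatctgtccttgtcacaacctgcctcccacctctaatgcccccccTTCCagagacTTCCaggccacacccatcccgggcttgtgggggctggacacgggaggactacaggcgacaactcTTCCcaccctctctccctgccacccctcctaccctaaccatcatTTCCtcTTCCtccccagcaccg
Kdr: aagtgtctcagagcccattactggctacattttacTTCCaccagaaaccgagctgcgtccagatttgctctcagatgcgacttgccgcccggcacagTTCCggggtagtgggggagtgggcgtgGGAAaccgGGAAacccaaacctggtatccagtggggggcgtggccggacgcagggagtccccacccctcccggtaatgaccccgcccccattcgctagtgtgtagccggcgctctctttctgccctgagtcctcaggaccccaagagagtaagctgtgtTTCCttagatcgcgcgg
Robo4: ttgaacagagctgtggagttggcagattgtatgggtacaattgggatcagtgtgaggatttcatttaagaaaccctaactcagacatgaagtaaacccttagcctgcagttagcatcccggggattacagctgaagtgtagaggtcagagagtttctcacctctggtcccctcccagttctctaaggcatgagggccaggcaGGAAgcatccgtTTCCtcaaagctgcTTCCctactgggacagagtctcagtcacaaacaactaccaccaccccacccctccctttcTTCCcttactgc
Tek: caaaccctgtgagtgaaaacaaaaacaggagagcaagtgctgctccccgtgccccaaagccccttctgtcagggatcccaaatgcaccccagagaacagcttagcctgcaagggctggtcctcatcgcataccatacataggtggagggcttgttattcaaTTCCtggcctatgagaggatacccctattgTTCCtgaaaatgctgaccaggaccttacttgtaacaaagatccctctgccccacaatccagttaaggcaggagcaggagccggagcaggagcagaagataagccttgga

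The Tie1 promoter held 9 matches, Kdr 5, Eng, Flt1 and Robo4 4 each, and Tek 2. Over all 32851 RefSeq promoters of this length the mean was 3.52, 96.0% held at least 1, and 1.59% held 9 or more. AACAGGAA, a longer motif that contains GGAA and is bound by forkhead and ETS factors together, was in none of the 6 windows on either strand and in 2.60% of all promoters. These are counts of letters in 1 window and say nothing of which factors bind there. The promoters printed were picked by the size of the null effect, and whether the matches go with that effect was not tested.

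Tie1, an endothelial receptor tyrosine kinase that modulates signalling by Tek, was well above the floor in null kidneys and close to it in wild type kidneys. At E12.5 its probe set 1416238_at read 2209 and 2428 in null kidneys, against 212 and 123 in wild type kidneys. E13.5 kidneys gave 1455 and 1047 in null, against 148 and 29.1 in wild type. For E16.5 the signals were 2728 and 3034 in null and 142 and 121 in wild type kidneys. The lowest null sample was thus several times the highest wild type sample, and the adult samples, at 154 and 179, lay among the wild type embryonic ones. The log2 fold change was 3.84 ± 0.35 at E12.5, 3.45 ± 0.35 at E13.5 and 4.46 ± 0.35 at E16.5 (adjusted p = 4.04e-05, 8.42e-05 and 1.27e-05). At E13.5, 1 of the 2 wild type samples lay under the floor.

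Tek, also called Tie2, the receptor that binds the angiopoietins, showed a smaller difference between the genotypes. Its probe set 1418788_at read 1339.5 and 914 in null E12.5 kidneys, against 456 and 366 in wild type. It read 1795 and 841 in null E13.5 kidneys, against 733 and 1042 in wild type. In E16.5 kidneys it gave 5172 and 2885 in null and 3183 and 1599 in wild type. The genotypes were apart at E12.5, but the groups overlapped at E13.5 and E16.5. Only at E12.5 did the difference pass the test, at 1.44 ± 0.45 (adjusted p = 0.0398), while E13.5 gave 0.49 ± 0.45 and E16.5 0.78 ± 0.45 (adjusted p = 0.452 and 0.193). An F test of whether the effect differs between stages did not pass (adjusted p = 0.542). Leaving out any 1 of the 4 E12.5 samples ended that call (1.16 to 1.71, adjusted p = 0.0778 to 0.195). Its stage average was 0.90 ± 0.26 (adjusted p = 0.0119) and was lost with quantile normalization (0.60, adjusted p = 0.0724) and median centring (0.64, adjusted p = 0.0548).

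Kdr, the main signalling receptor for VEGF-A, was well above the floor in all 14 samples. Probe set 1449379_at read 8178 and 10456 in null E12.5 kidneys, against 1748 and 1807 in wild type. At E13.5 null kidneys gave 15746 and 8700.2 and wild type kidneys 1810.4 and 1785. Signals at E16.5 were 12194 and 12796 in null and 3503 and 2779 in wild type kidneys. No null sample came near the wild type range, although the 2 null samples at E13.5 stood apart from each other. The log2 fold change was 2.38 ± 0.30, 2.70 ± 0.30 and 2.00 ± 0.30 at the 3 stages (adjusted p = 0.000263, 0.000152 and 0.0004).

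Flt1, which encodes a high-affinity VEGF receptor and, by alternative transcripts, a soluble form that binds the ligand, rose at the 2 earlier stages. Its leading probe set 1419300_at read 1340.5 and 777 in null and 157 and 206 in wild type kidneys at E12.5. It read 1693 and 957 in null and 253 and 116 in wild type kidneys at E13.5. At E16.5 it gave 843 and 1019.5 in null and 765 and 654 in wild type kidneys, so the groups stayed apart but close together, as wild type kidneys had more signal there than at the earlier stages. The fold changes were 2.51 ± 0.41 and 2.89 ± 0.41 at E12.5 and E13.5 (adjusted p = 0.00138 and 0.000564), while E16.5 gave 0.39 ± 0.41 (adjusted p = 0.482). The F test for a difference of the effect between stages gave an adjusted p of 0.0204.

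The other Flt1 probe sets did not all read the same. Probe set 1451756_at rose at E12.5 (1.52 ± 0.35) and E13.5 (1.25 ± 0.35) and gave -0.16 ± 0.35 at E16.5 (adjusted p = 0.00975, 0.0205 and 0.747). Its E12.5 call was lost without null replicate 2 (1.24, adjusted p = 0.0869) or wild type replicate 2 (1.23, adjusted p = 0.105), and its E13.5 call without null replicate 1 (0.93, adjusted p = 0.151) or wild type replicate 1 (1.04, adjusted p = 0.106). On 430B, probe set 1440926_at had no call, with 0.62 ± 0.38, -0.75 ± 0.38 and -0.05 ± 0.38 at the 3 stages, and its signals were 948 to 2226 in null samples and 1072 to 3418 in the 8 wild type samples. The untested 1454037_a_at, at 201 to 327 in null samples and 50.6 to 179 in wild type samples, had no overlap between the genotypes. Across the 14 samples the log2 values of 1440926_at correlated with those of 1419300_at at r = -0.145, while 1454037_a_at and 1419300_at correlated at r = 0.774, given as a description of probe sets that share each sample.

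Cdh5, which encodes VE-cadherin of the endothelial adherens junction, rose at E12.5 and E13.5. Probe set 1433956_at read 2874 and 3145 in null and 560.3 and 525 in wild type kidneys at E12.5. At E13.5 it gave 2419.8 and 2044 in null and 739 and 459.5 in wild type kidneys. E16.5 signals were 1208 and 1749.9 in null and 945 and 789 in wild type kidneys. Groups did not overlap at any stage, and the distance between them was least at E16.5, where null kidneys had their lowest values. Fold changes were 2.47 ± 0.30, 1.93 ± 0.30 and 0.75 ± 0.30 (adjusted p = 0.000192, 0.000955 and 0.0665), with an adjusted p of 0.0347 for a difference of the effect between stages. The other probe set, 1422047_at, was at or under the floor in 7 of 14 samples.

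Pecam1, which encodes the CD31 adhesion protein of endothelial cells, platelets and leukocytes, rose at the last stage. Its only probe set, 1421287_a_at, read 891 and 1310.4 in null and 685 and 649 in wild type kidneys at E12.5. At E13.5 the signals were 1092 and 1218 in null and 736 and 669.5 in wild type kidneys. At E16.5 null kidneys gave 1709 and 1867 and wild type kidneys 582 and 287. The null samples were the higher at each stage, with the widest gap at E16.5. There the fold change was 2.13 ± 0.34 (adjusted p = 0.00052), against 0.70 ± 0.34 at E12.5 and 0.72 ± 0.34 at E13.5, which did not pass (adjusted p = 0.166 and 0.14). The stage average rose by 1.18 ± 0.19 (adjusted p = 0.000319), and the F test for a difference between stages did not pass (adjusted p = 0.0762).

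Eng, which encodes endoglin, rose at every stage by probe set 1417271_a_at. It read 1160.2 and 1474 in null and 669.7 and 576 in wild type kidneys at E12.5. It read 1216 and 1104 in null and 714 and 338 in wild type kidneys at E13.5. Values at E16.5 were 2688 and 2998 in null and 609.6 and 722 in wild type kidneys. All null samples were above all wild type embryonic samples, but the adult samples, at 2685 and 2353, reached the level of the null E16.5 kidneys. Fold changes were 1.07 ± 0.33, 1.24 ± 0.33 and 2.10 ± 0.33 (adjusted p = 0.0384, 0.017 and 0.000518). The E12.5 call was lost without any 1 of its 4 samples (0.90 to 1.25, adjusted p = 0.0678 to 0.19) and with median centring (0.60, adjusted p = 0.237). At E13.5 it was lost without wild type replicate 2 (0.70, adjusted p = 0.174), null replicate 1 (1.17, adjusted p = 0.0817) or null replicate 2 (1.31, adjusted p = 0.0535).

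A second Eng probe set, 1432176_a_at, gave 1.42 ± 0.60, 2.62 ± 0.60 and 1.50 ± 0.60, of which the E13.5 value passed (adjusted p = 0.00762). That value turned on wild type E13.5 replicate 2, which read 72.1 and lay under the floor while replicate 1 read 572. Without wild type replicate 2 it was 1.25 (adjusted p = 0.0402), and without wild type replicate 1 it was 3.98 (adjusted p = 0.000169).

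Robo4, the roundabout receptor found mainly on endothelial cells, gave nearly the same difference at each stage. Probe set 1426206_at read 1727 and 1911 in null and 504 and 550.5 in wild type kidneys at E12.5. At E13.5 it gave 1519 and 1272 in null and 486 and 440.3 in wild type kidneys. Signals were 1507 and 1750.1 in null and 454 and 472 in wild type kidneys at E16.5. The 6 null samples spanned 1272 to 1911 and the 8 wild type samples 440.3 to 608, so wild type kidneys of every age formed 1 narrow band. Fold changes were 1.79 ± 0.27, 1.59 ± 0.27 and 1.81 ± 0.27 (adjusted p = 0.000839, 0.00159 and 0.000376).

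Vwf, which encodes the von Willebrand clotting factor, had the largest difference of the 10 genes at E12.5 and much less signal in null kidneys a day later. Probe set 1435386_at read 2419 and 4931 in null and 31.2 and 102 in wild type kidneys at E12.5. At E13.5 null kidneys gave 354 and 154 and wild type kidneys 102 and 35.1. At E16.5 null kidneys gave 475 and 667 and wild type kidneys 64.9 and 114. Every wild type sample, adult included, lay between 31.2 and 116, near or under the floor, and 1 sample of each wild type embryonic group lay under it. Fold changes were 5.20 ± 0.43, 1.32 ± 0.43 and 2.51 ± 0.43 (adjusted p = 2.90e-05, 0.0398 and 0.000832), and the F test of a difference between stages gave an adjusted p of 0.00289.

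The E13.5 call of Vwf was lost without null replicate 1 (0.72, adjusted p = 0.313), wild type replicate 1 (1.44, adjusted p = 0.0788) or wild type replicate 2 (1.20, adjusted p = 0.163), and the value was 1.92 (adjusted p = 0.0164) without null replicate 2. A floor at the 40th percentile gave 0.17 there (adjusted p = 0.723), and the replicate block 1.32 (adjusted p = 0.0513). Platelets also carry Vwf protein and megakaryocytes its RNA, and the summed signal of 7 megakaryocyte and platelet genes was 13194 and 6208 in null samples 1 and 2 at E12.5, against 3794 and 4424 in wild type. Of these 7 genes, Itga2b rose at E12.5 (1.46 ± 0.38, adjusted p = 0.0188) and the other 6 did not (5 of 7 higher unadjusted). The part of these cells in the Vwf result was not tested.

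Sox17, a SoxF transcription factor, had 2 probe sets that moved together at E12.5 and apart at E16.5. Probe set 1421657_a_at read 630.5 and 924 in null and 288 and 308 in wild type kidneys at E12.5. A day later the signals were 500.3 and 647 in null and 357 and 425 in wild type. At E16.5 it read 1136 and 993 in null and 451 and 416 in wild type kidneys. Null samples were the higher throughout, with changes of 1.36 ± 0.30, 0.55 ± 0.30 and 1.29 ± 0.30 (adjusted p = 0.00747, 0.198 and 0.00479). Its E12.5 call was lost without null replicate 2 (1.08, adjusted p = 0.0729) or wild type replicate 1 (1.31, adjusted p = 0.0652).

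Probe set 1429177_x_at, of a type whose probes can also match other transcripts, read 1139.6 and 809 in null and 253 and 339 in wild type kidneys at E12.5. It read 534 and 657 in null and 317 and 184 in wild type kidneys at E13.5. At E16.5 it read 719 and 903 in null and 2324 and 2212 in wild type kidneys, the reverse order, as wild type kidneys of that stage had far more signal than all other samples. The changes were 1.71 ± 0.36, 1.29 ± 0.36 and -1.49 ± 0.36 (adjusted p = 0.00617, 0.0208 and 0.00665), with an adjusted p of 0.00231 for a difference between stages. Without null replicate 1 the E12.5 call was lost (1.47, adjusted p = 0.0502), as it was without wild type replicate 1 (1.50, adjusted p = 0.0707). The E13.5 call was lost without wild type replicate 2 (0.90, adjusted p = 0.172), null replicate 1 (1.44, adjusted p = 0.0522) or null replicate 2 (1.15, adjusted p = 0.108), and the E16.5 call without null replicate 1 (-1.33, adjusted p = 0.0504). The 2 probe sets correlated at r = 0.391 across the 14 samples, so the direction of Sox17 at E16.5 depends on the probe set. The stage average of 1429177_x_at had no call (0.51 ± 0.21, adjusted p = 0.0616) and was 0.64 without wild type E13.5 replicate 1. Over E12.5 and E13.5 alone it had a call (1.50, adjusted p = 0.000579). The stage average of 1421657_a_at rose by 1.07 (adjusted p = 0.000264), a call lost with the actin ratio as a covariate (0.84, adjusted p = 0.109).

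**Figure D2:**
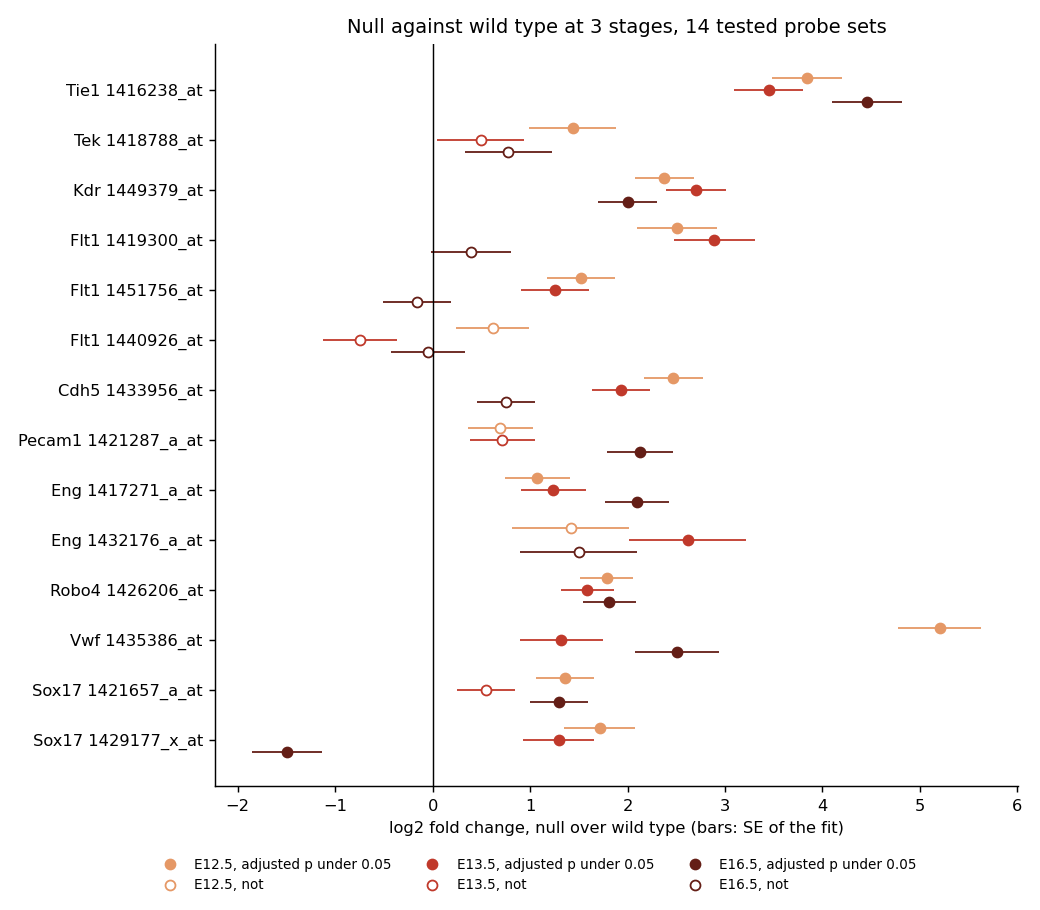
Log2 fold change of null over wild type kidneys for the 14 tested probe sets, in 1 colour for each of the 3 embryonic stages, with bars for the SE of the fit and filled points where the adjusted p was under 0.05. All 14 values are positive at E12.5, Tie1, Kdr, Robo4, Vwf and Eng 1417271_a_at are filled at all 3 stages, and Sox17 1429177_x_at at E16.5 is the only filled point under 0.

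**Figure D3:**
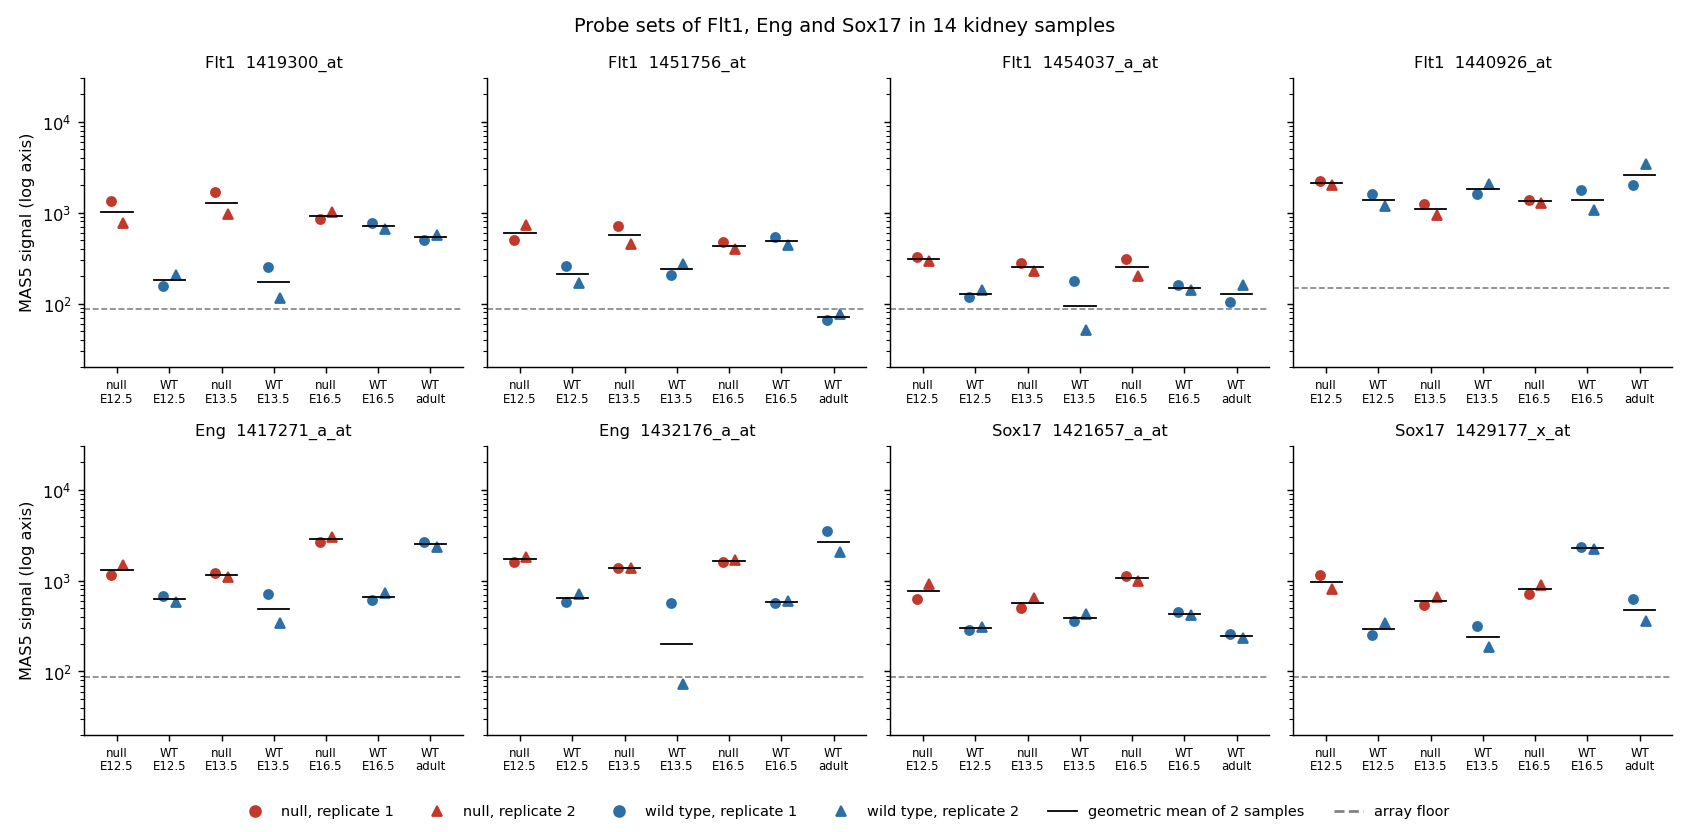
MAS5 signal (log axis) of all probe sets of Flt1, Eng and Sox17 in the 14 samples, with the floor of each probe set's design as a dashed line. The Flt1 probe sets 1419300_at, 1451756_at and 1454037_a_at show higher null signals at E12.5 and E13.5. Flt1 1440926_at shows them at E12.5, without a call, but not at E13.5. Sox17 1429177_x_at alone has its highest signals, 2324 and 2212, in wild type E16.5 kidneys.

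An F test across the stages called 4 of the 14 probe sets, those of Flt1 1419300_at, Cdh5, Vwf and Sox17 1429177_x_at, against 14.3% of all tested probe sets. For Cdh5 the call was lost without 1 of the E12.5 samples or without wild type E16.5 replicate 1 or 2 or null E16.5 replicate 1 (adjusted p = 0.0569 to 0.147), and with quantile normalization (adjusted p = 0.0801), median centring (adjusted p = 0.122) or the actin ratio as a covariate (adjusted p = 0.0703). For Flt1 it was lost without any 1 of the E16.5 samples (adjusted p = 0.054 to 0.0998) and with no filter (adjusted p = 0.0715). Calls were gained by Pecam1 without wild type E16.5 replicate 1 (adjusted p = 0.0378), Eng 1432176_a_at without wild type E13.5 replicate 1 (adjusted p = 0.00609) and Flt1 1451756_at without null E13.5 replicate 2 (adjusted p = 0.0457). Pecam1 also gained it with quantile normalization (adjusted p = 0.0417) and median centring (adjusted p = 0.0216), and Flt1 1451756_at with a floor at the 40th percentile (adjusted p = 0.0416) and with no trend (adjusted p = 0.0477).

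Because the actin ratio differed between the genotypes, each comparison was also fitted with the log2 actin ratio of the array as a covariate. The slope of that covariate came from differences between the 2 arrays of each group. On 430A the adult pair differed most (2.70 and 5.93). Ratios there were 1.26 to 2.27 in null and 2.88 to 4.125 in wild type embryonic samples, with no overlap. The fit carries the slope across that gap, so the ratio and the genotype cannot be fully told apart. At E12.5 the probe sets of Tie1 (4.01), Kdr (1.76), Flt1 1419300_at (2.77), Cdh5 (2.35) and Vwf (4.59) then still rose, 5 in all, against 1.96% of all tested probe sets. At E13.5 those of Tie1 (3.64), Kdr (1.98), Flt1 1419300_at (3.20) and Cdh5 (1.79) did, 4 in all, against 2.51%. At E16.5 the counts stayed at 7 higher and 1 lower, against 13.2% and 15.5%. In the stage average 7 of 14 rose, against 7.09%, and 5 calls were lost. Of these, the change of Tek was 1.23 with the covariate and 0.90 without it, that of Eng 1432176_a_at 1.80 and 1.84, that of Pecam1 0.98 and 1.18, that of Sox17 1421657_a_at 0.84 and 1.07, and that of Flt1 1451756_at 0.64 and 0.87 (adjusted p = 0.0988 to 0.297 with the covariate). One 430A scan day held null E12.5 replicate 1 together with 6 wild type samples, the E13.5, E16.5 and adult ones. There the null sample lay above all 6 in 8 of the 13 tested 430A probe sets, a comparison that also spans stages. Among these 8 were Tie1, Vwf and Sox17 1421657_a_at, which passed the filter through null groups alone. The share over all probe sets was not counted, so the 8 are a description and no check on the scan day.

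The fit with only the 4 samples of a stage left the E13.5 comparison with 0 calls among the 14 (10 at an unadjusted p under 0.05 in the fit of all samples), where 1.01% of all tested probe sets rose and 0.160% fell. It gave Tie1 at 3.45 (adjusted p = 0.0504) and Kdr at 2.70 (adjusted p = 0.051).

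The receptors and ligands that act with these genes were read from lists, 1 probe set a gene. Of 11 other vascular receptors and guidance receptors, 7 rose and 0 fell in null kidneys at E12.5 (8 and 0 unadjusted), with a median of 1.44. At E13.5 7 rose and 0 fell (7 and 1 unadjusted), and at E16.5 4 rose and 0 fell (4 and 0 unadjusted). Nrp1, a co-receptor for VEGF and semaphorins, rose by 3.09 ± 0.34 at E12.5, rose by 2.29 ± 0.34 a day later and gave 0.09 ± 0.34 at E16.5 (adjusted p = 0.000106, 0.000725 and 0.86). Nrp2, its paralogue, gave 2.84 ± 0.35, 1.67 ± 0.35 and -0.30 ± 0.35 (adjusted p = 0.00023, 0.00521 and 0.532). Notch4, an endothelial Notch receptor, rose at all 3 stages, by 2.71 ± 0.38, 1.96 ± 0.38 and 1.21 ± 0.38 (adjusted p = 0.000518, 0.00311 and 0.0245), as did the semaphorin receptor Plxnd1 (1.77 ± 0.34, 1.30 ± 0.34 and 1.46 ± 0.34).

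Among 11 ligands, 6 rose and 0 fell at E12.5 (7 and 0 unadjusted), 7 rose and 1 fell at E13.5, and 3 rose and 1 fell at E16.5, with medians of 1.17, 1.25 and 0.64. Slit3, a secreted ligand of roundabout receptors, rose most, by 4.43 ± 0.52 at E12.5 and 3.48 ± 0.52 at E13.5 (adjusted p = 0.000153 and 0.000737), and by at least 3.86 at E16.5, where both wild type samples lay under the floor (adjusted p = 0.0002). Vegfb, a ligand of the Flt1 protein, rose at E12.5 (1.38 ± 0.35, adjusted p = 0.0163) and E13.5 (1.97 ± 0.35, adjusted p = 0.00208). The angiopoietins went different ways. Angpt1, the activating ligand of Tek, fell by 1.20 on the log2 scale at E13.5 and 1.00 at E16.5 (adjusted p = 0.0111 and 0.0193) and gave -0.22 ± 0.30 at E12.5. Angpt2, which can antagonise it, rose at E12.5 (1.26 ± 0.32, adjusted p = 0.015) and E16.5 (1.15 ± 0.32, adjusted p = 0.0127) and gave -0.11 ± 0.32 at E13.5.

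Of 29 other endothelial genes, 12 rose and 0 fell at E12.5 (16 and 0 unadjusted), 10 rose and 1 fell at E13.5, and 11 rose and 4 fell at E16.5, with medians of 0.82, 0.35 and 0.65. Ptprb, an endothelial phosphatase that acts on Tek, rose at every stage, by 3.77 ± 0.32, 1.45 ± 0.32 and 1.03 ± 0.32 (adjusted p = 2.90e-05, 0.00607 and 0.0227). Mmrn2, an extracellular matrix protein of endothelial cells, gave 3.12 ± 0.41, 1.99 ± 0.41 and 1.38 ± 0.41 (adjusted p = 0.000306, 0.00429 and 0.019). Sox18, a SoxF relative of Sox17, rose at each stage, by 1.63 ± 0.29, 1.77 ± 0.29 and 1.78 ± 0.29 (adjusted p = 0.00239, 0.00135 and 0.00066). Rasip1, needed for vessel tubes to open, rose most at E16.5 (2.87 ± 0.31, adjusted p = 6.70e-05). Fli1, an ETS factor, and Procr, the endothelial protein C receptor, gave -1.87 ± 0.36 and -1.74 ± 0.43 at E16.5, both falls (adjusted p = 0.00175 and 0.00704).

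Markers of other cell types moved in the same comparisons. Of 7 tested genes of mural cells, which surround vessels, 5 rose and 0 fell at E12.5 (6 and 0 unadjusted). At E13.5 it was 3 and 0, then 4 and 0 at E16.5 (the same counts unadjusted). Their summed signal was 15347.5 to 36775 in null and 7627 to 21905 in wild type embryonic samples. Cspg4, a pericyte proteoglycan, rose by 2.06 ± 0.45, 2.81 ± 0.45 and 1.53 ± 0.45 (adjusted p = 0.00735, 0.00114 and 0.0182). Of 12 macrophage and leukocyte genes, 6, 3 and 4 rose at the 3 stages and 0 fell (9, 4 and 4 against 0 unadjusted), and the sum was 10484 to 20721 in null and 5916.5 to 8247 in wild type embryonic samples. Csf1r, the receptor that macrophages need, rose by 2.23 ± 0.24, 1.37 ± 0.24 and 1.57 ± 0.24 (adjusted p = 8.85e-05, 0.00171 and 0.000392). The part of these cells in the results for Pecam1, which leukocytes also carry, was not tested.

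Red cell genes did not follow the endothelial ones. Of 5 tested, 0 rose and 0 fell at E12.5 (0 and 0 unadjusted), 1 fell at E13.5 and 3 fell at E16.5, and their sum was 7769.6 to 72068 in null and 22848 to 85084.5 in wild type embryonic samples. At E16.5 Hbb-y, an embryonic beta globin, fell by 3.07 on the log2 scale (adjusted p = 6.16e-05). Of the 7 megakaryocyte genes, 1 rose at E12.5, 0 changed at E13.5 (0 unadjusted) and 3 fell at E16.5. The 2 tested lymphatic genes, Lyve1 and Pdpn, had 0 calls at each stage (0, 0 and 2 falling unadjusted), and the defining lymphatic gene Prox1 did not pass the filter.

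Tissue next to the kidney was read by 10 genes of adrenal, gonad, neuron, muscle and cartilage, of which 5 rose and 0 fell at E12.5 (6 and 0 unadjusted), with a sum of 18144 and 19179.8 in null against 6526 and 7775 in wild type. At E13.5 3 rose and 1 fell, and at E16.5 3 rose and 3 fell, where the sum was 3834 and 3577 in null against 4187 and 3597 in wild type. Col2a1 and Col9a1, collagens of cartilage, rose at E12.5 by 1.87 ± 0.39 and 2.03 ± 0.37 (adjusted p = 0.00553 and 0.00265). The part of such tissue in the E12.5 results was not tested.

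None of the tested kidney genes was at the floor in every sample, though Cubn and Slc22a6, a receptor and a transporter of the proximal tubule, averaged 26.1 and 56.0 in wild type E13.5 kidneys. The sum of 6 nephron progenitor genes was 4841 to 11799.9 in null and 11612 to 26853 in wild type embryonic samples, and that of 5 ureteric genes 4748 to 8991 in null and 10211 to 16089.6 in wild type embryonic samples. Genes within these sums went both ways. Of the 6 progenitor genes 2 rose and 2 fell at each of the first 2 stages, and of the 5 ureteric genes 1 rose and 1 fell (medians 0.57 and 0.49, then 0.12 and 0.32). At E16.5, 1 progenitor gene rose and 2 fell, and 0 ureteric genes rose and 1 fell (medians -0.28 and -0.055). Eya1, a progenitor transcription cofactor, averaged 6374 in null and 18260 in wild type kidneys at E12.5. Calb1, a calcium-binding protein of ureteric epithelium, averaged 1673 in null and 7958 in wild type kidneys there, while Gata3, a ureteric transcription factor, rose by 2.46 ± 0.53 (adjusted p = 0.00696). A sum of 6 proximal tubule genes was 113061.5 and 127248 in adult kidneys, against 907 to 9291 in wild type embryonic kidneys. At E16.5 it was 27706 and 14076 in null against 9291 and 8392 in wild type kidneys. There 3 of the 6 genes rose and 1 fell, while 0 rose and 0 fell at E12.5 and at E13.5. The 10 endothelial genes, by their leading probe sets, summed to 17995 to 29669.8 in null samples, against 5099 to 12571 in wild type embryonic samples. Kdr alone read 8178 to 15746 in the null samples and 1748 to 3503 in the wild type embryonic ones, a large part of the null sums.

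**Figure D4:**
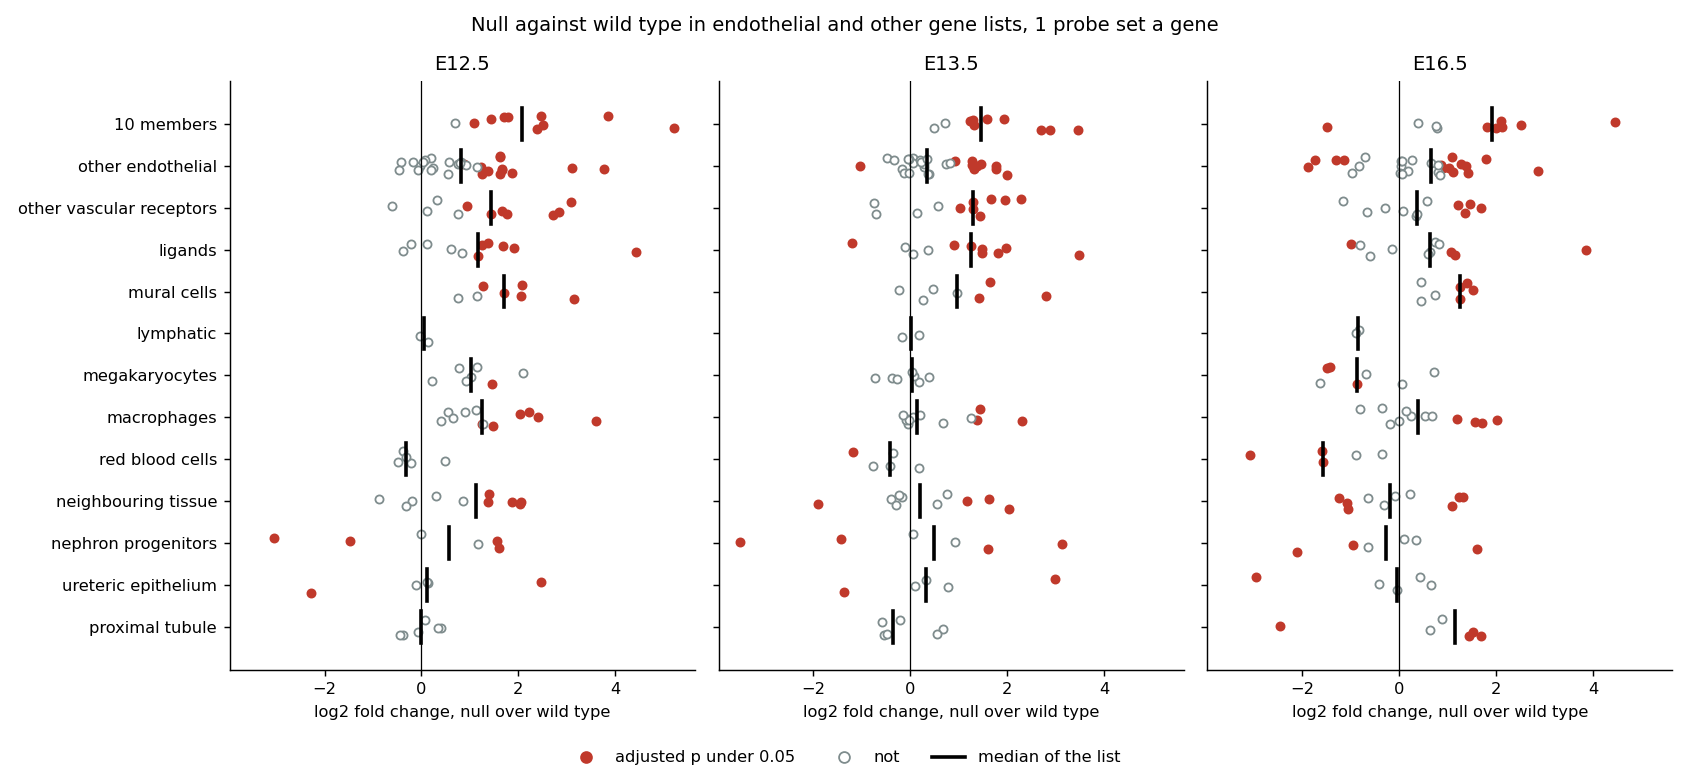
Log2 fold change of null over wild type kidneys in 1 panel for each of the 3 embryonic stages, for each gene of 13 lists, 1 probe set a gene, with filled points at an adjusted p under 0.05 and a black bar at the list's median. The medians of the 10 endothelial identity genes are 2.08, 1.45 and 1.91 at the 3 stages, and those of the red cell genes -0.32, -0.42 and -1.57.

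Within wild type kidneys 0 of the 14 probe sets were called by limma at E13.5 against E12.5 (1 higher and 1 lower unadjusted), against 0.308% rising and 0.0851% falling among all. Tek gave 1.10 ± 0.45 and Eng 1432176_a_at -1.53 ± 0.60 there, each without overlap between the stages (adjusted p = 0.376 and 0.344). Without wild type E13.5 replicate 1, Eng 1432176_a_at had a call (-2.90, adjusted p = 0.00374). From E13.5 to E16.5, 3 rose and 0 fell (6 and 1 unadjusted), against 11.5% rising and 9.07% falling among all. They were Flt1 1419300_at (2.04 ± 0.41, adjusted p = 0.00466), Sox17 1429177_x_at (3.23 ± 0.36, adjusted p = 9.87e-05) and Tek (1.37 ± 0.45, adjusted p = 0.0454). The Tek call was lost without wild type E13.5 replicate 1 (1.12, adjusted p = 0.2), E13.5 replicate 2 (1.62, adjusted p = 0.07) or E16.5 replicate 1 (0.87, adjusted p = 0.34). Pecam1 gained one without E16.5 replicate 1 (-1.29, adjusted p = 0.0479), and Eng 1432176_a_at without E13.5 replicate 1 (2.76, adjusted p = 0.000822).

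Within null kidneys, E13.5 against E12.5 gave 0 rises and 1 fall (0 and 3 unadjusted), against 0.0164% rising and 0.0654% falling among all. Vwf fell by 3.88 on the log2 scale (SE 0.43, adjusted p = 0.00336), with changes of -3.29 and -4.48 when null E13.5 replicate 2 or 1 was left out. At E16.5 against E13.5 3 rose and 0 fell (5 and 0 unadjusted), against 5.83% rising and 9.20% falling among all. Tek rose by 1.65 ± 0.45, Eng 1417271_a_at by 1.29 ± 0.33 and Tie1 by 1.22 ± 0.35 (adjusted p = 0.0267, 0.0216 and 0.0362). The calls of Eng and Tie1 were lost without any 1 of the 4 samples (1.21 to 1.37 for Eng and 0.98 to 1.46 for Tie1), and that of Tek without null E13.5 replicate 2 (1.11) or E16.5 replicate 1 (1.23). Vwf gained one without null E13.5 replicate 1 (1.87, adjusted p = 0.0301).

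The series also set embryonic kidneys against adult ones, and there the endothelial genes differed from each other. These comparisons share the adult samples with each other and the wild type embryonic samples with the null comparisons. Against wild type E12.5, 4 probe sets were higher in the adult and 2 lower, where 15.1% and 20.2% of all were. Against E13.5, 4 were higher and 2 lower, beside 14.9% and 21.4%. Against E16.5, 2 were higher and 3 lower, beside 18.0% and 24.6%.

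Eng had the clearest adult rise. Probe set 1417271_a_at read 2685 and 2353 in adult kidneys, above all 6 wild type embryonic samples, and was higher by 2.02 ± 0.33 against E12.5, 2.35 ± 0.33 against E13.5 and 1.92 ± 0.33 against E16.5 (adjusted p = 0.000282, 7.82e-05 and 0.000432). Eng 1432176_a_at, at 3476 and 2082 in the adult, rose in the same 3 comparisons (2.07 ± 0.60, 3.60 ± 0.60 and 2.21 ± 0.60). Its calls were lost without adult replicate 1 against E12.5 (1.70, adjusted p = 0.152) and E16.5 (1.84, adjusted p = 0.109), and without wild type replicate 1 of E12.5 (1.94, adjusted p = 0.0836) or of E16.5 (2.16, adjusted p = 0.0533), and against E13.5 it was 2.23 without wild type replicate 2 and 4.97 without replicate 1.

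Pecam1 went the other way, reading 314 and 338 in adult kidneys, and fell by 1.03 and 1.11 on the log2 scale against E12.5 and E13.5 (adjusted p = 0.0279 and 0.0193). Both calls were lost without any 1 of the 4 samples (-0.98 to -1.18, adjusted p = 0.0561 to 0.123). Against E16.5 Pecam1 gave -0.33 ± 0.34 (adjusted p = 0.456).

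The VEGF receptors gave mixed values in the adult. Flt1 1419300_at read 504 and 572 and was higher by 1.58 ± 0.41 against E12.5 and 1.65 ± 0.41 against E13.5 (adjusted p = 0.00814 and 0.00628). The first call was lost without adult replicate 2 (1.49, adjusted p = 0.0598) or wild type E12.5 replicate 1 (1.38, adjusted p = 0.0721), and the second without adult replicate 2 (1.55, adjusted p = 0.0505) or wild type E13.5 replicate 2 (1.09, adjusted p = 0.0883). Flt1 1451756_at, at 65.3 and 76.8, was under the floor in both adult samples. Its signal fell by at least 1.28 on the log2 scale against E12.5, by at least 1.46 against E13.5 and by at least 2.50 against E16.5 (adjusted p = 0.0106, 0.0046 and 8.34e-05). The first of these calls was lost without wild type E12.5 replicate 1 (-0.98, adjusted p = 0.122), and a floor at the 40th percentile left a difference of 0 against E12.5 and E13.5. Flt1 1440926_at had no call, but gained one against E12.5 without adult replicate 1 (1.31, adjusted p = 0.0374) and against E16.5 without adult replicate 1 (1.31, adjusted p = 0.0344) or wild type replicate 1 (1.29, adjusted p = 0.0482). Kdr, at 2692 and 1717, gave 0.28 ± 0.30, 0.26 ± 0.30 and -0.54 ± 0.30 (adjusted p = 0.536, 0.553 and 0.17).

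Tek read 1156 and 1797 in adult kidneys and was higher than at E12.5 by 1.82 ± 0.45 (adjusted p = 0.00563), a call lost without adult replicate 2 (1.50, adjusted p = 0.0755). Tie1, Cdh5, Robo4 and Vwf had no call in the 3 adult comparisons, with values from -0.41 for Cdh5 to 0.56 for Tie1. Sox17 1429177_x_at, at 622 and 364, gave -2.25 ± 0.36 against E16.5 (adjusted p = 0.000248) and 0.98 ± 0.36 against E13.5 (adjusted p = 0.0488), a call that was lost without wild type replicate 2 (0.59, adjusted p = 0.336) or adult replicate 1 (0.59, adjusted p = 0.322). Sox17 1421657_a_at, at 259.8 and 231, gave -0.82 ± 0.30 against E16.5 (adjusted p = 0.0386), a call lost without any 1 of the 4 samples (-0.74 to -0.91, adjusted p = 0.0625 to 0.154).

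**Figure D5:**
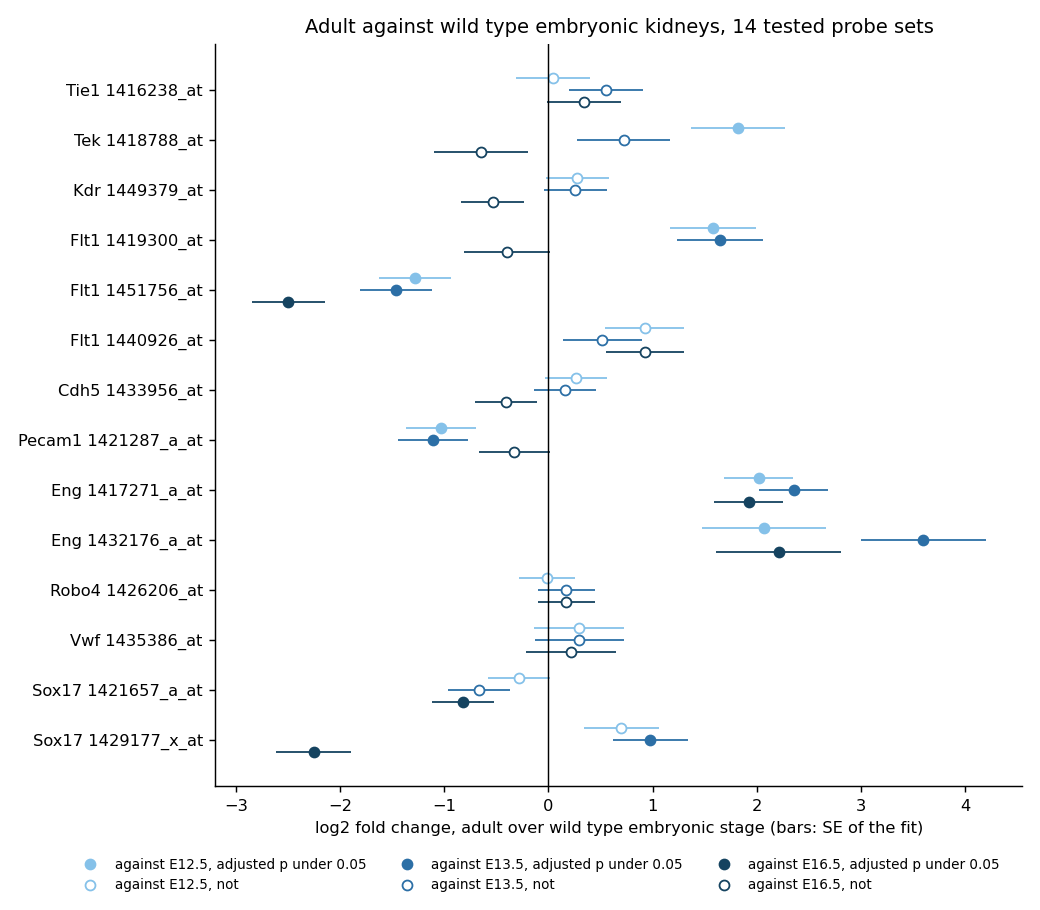
Log2 fold change of adult over wild type embryonic kidneys for the 14 tested probe sets, against E12.5, E13.5 and E16.5, with bars for the SE of the fit and filled points where the adjusted p was under 0.05. Both Eng probe sets lie to the right at all 3 stages (1.92 to 3.60), Flt1 1451756_at to the left, and Tie1, Kdr, Cdh5, Robo4 and Vwf have open points throughout.

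Across the 14 samples the genes followed each other to different degrees. The log2 value of each leading probe set was set against the mean of the other 9 genes, as a description over samples that share genotype and stage. Kdr (r = 0.947), Tie1 (0.93), Robo4 (0.908) and Cdh5 (0.881) lay closest to the rest. Sox17 1429177_x_at (0.429), Tek (0.498) and Eng (0.559) lay farthest, and Eng gave 0.862 over the 12 embryonic samples alone. Outside the 10 genes, among 14118 genes, the pattern most like their mean over the 14 samples was that of Actn4, an actin-bundling protein (r = 0.959), then Wdr1, which helps take actin filaments apart (0.958), and Esam, an endothelial adhesion protein (0.956). Sec14l1 (0.954), Adcy6 (0.953), Ano8 (0.952), Palm (0.952) and Mrtfb (0.948) followed. Over the 12 embryonic samples Actn4 gave 0.977, Wdr1 0.965 and Esam 0.957.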

How the data were processed

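The members and the gene lists were chosen with earlier results of these data known. The authors deposited 1 signal value for each probe set, made with MAS5 per the submitters' processing notes, and the trimmed mean of an array was 1500.4 to 1500.7 on 430A and 1500.3 to 1500.4 on 430B. MAS5 settings and detection calls are not given in the sources used here. Per the labels' protocols, embryonic RNA (30 ng) and adult RNA (100 ng) were amplified by in vitro transcription in 2 rounds.

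Signals were floored at the design's 20th percentile and log2 transformed. Probe sets with a group mean above the design's median in at least 1 of 7 groups were tested (30564 of 45037 after leaving out 64 control probe sets a design and the 430B copy of 100 shared ones). Each design was fitted with limma 3.58.1 in R 4.3.3, a mean per group over its 14 arrays, which left 7 residual degrees of freedom, and trended eBayes. P-values were two-sided and Benjamini-Hochberg adjusted over both designs. An F test compared the null effect at the 3 stages. The fit was tested on simulated data. Run records gave the scan days, and for both arrays of adult replicate 2 they name the other design's chip type.

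A gene was read by its tested probe set with the highest mean, 430A first. From each list up to 4 called genes with the largest change at the stage described or in the stage average were named, and the 8 genes most like the members by correlation. List genes without a probe set or under the filter were left out, and each count gives those tested. Replicate numbers do not pair samples: same-numbered null and wild type samples correlated at -0.353 to 0.177 in their deviations from the group means. Promoters are from RefSeq tables. The alternatives changed the scaling (quantile normalization, median centring), the treatment of low signals (adding 32 instead of flooring, or flooring at percentile 40), the filter (none, or percentile 70), eBayes (untrended), the adjustment (within each design), the samples (those compared, or without each replicate in turn) and the model (replicate block, random scan day, or the actin ratio as a covariate). A stage average without E16.5 was added after seeing the data.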

Additional observations from a re-analysis of the deposited data

Results flagged for a closer look

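In 4 probe sets the null effect differed between stages by the F test of the fit across all probe sets. For Flt1 1419300_at the adjusted p was 0.0204, with log2 fold changes of 2.51 ± 0.41 at E12.5, 2.89 ± 0.41 at E13.5 and 0.39 ± 0.41 at E16.5. For Cdh5 1433956_at it was 0.0347, with 2.47 ± 0.30, 1.93 ± 0.30 and 0.75 ± 0.30 at the 3 stages. For Vwf 1435386_at it was 0.00289, with 5.20 ± 0.43, 1.32 ± 0.43 and 2.51 ± 0.43. For Sox17 1429177_x_at it was 0.00231, with 1.71 ± 0.36, 1.29 ± 0.36 and -1.49 ± 0.36, and Sox17 1421657_a_at had an adjusted p of 0.314. The null E16.5 arrays were the ones read on another scanner type, and its part in these differences was not tested. Groups of 2 samples were too small to look for single outlying samples.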

How the results depend on the processing

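Counts are of the 14 tested member probe sets called. At E12.5, 11 became 7 with quantile normalization and 5 with the actin covariate. Over all probe sets the 3793 higher and 1892 lower became 2928 and 1954, and 598 and 181. At E13.5, 10 became 6 with median centring, 4 with the actin covariate and 0 with only the samples compared, where over all probe sets the 4410 higher and 2742 lower became 3689 and 3070, 767 and 441, and 308 and 49. In the stage average, 12 became 7 with the actin covariate, where over all the 7148 higher and 7172 lower became 2166 and 1229. The 8 at E16.5 changed by under 1.5 times in every alternative run. With only the samples compared, adult against E13.5 had 2 calls in place of 6 (over all, 4569 higher and 6528 lower became 2687 and 3310). Wild type E16.5 against E13.5 had 1 in place of 3 (3502 and 2773 became 1990 and 831). For null E13.5 against E12.5 it was 0 in place of 1 (5 and 20 became 0 and 0). For null E16.5 against E13.5 it was 0 in place of 3 (1783 and 2811 became 266 and 59). The last of these became 5 with median centring (3570 and 994). Adult against E16.5 had 3 in place of 5 with a filter at the 70th percentile, where 11 member probe sets were left. Over all, 5510 higher and 7526 lower of 30564 became 4480 and 6199 of 20915. The causes were not tested. Calls over all probe sets also changed when 1 sample was left out, so the counts that follow only describe the members. Leaving out 1 sample gave 7 to 8 calls at E12.5, 6 to 8 at E13.5, 12 to 13 in the stage average, 2 to 5 for adult against E12.5, 3 to 5 for adult against E13.5, 0 to 1 for wild type E13.5 against E12.5, 0 to 2 for null E16.5 against E13.5, and 2 to 5 for the difference between stages.

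The replicate block gave 11, 9 and 8 calls at the 3 stages and 12 in the average. Over all probe sets it gave 3536 higher and 1635 lower, 4162 and 2559, 4675 and 5595, and in the average 7025 and 6929. No called member value turned its sign in any alternative run, in any of the comparisons. Without 1 replicate number the quality differences of null minus wild type stayed in direction, with 3 against 3 samples, which cannot go below an exact p of 0.1: the actin ratio -1.75 to -1.74 on 430A and -1.83 to -1.67 on 430B, and the median signal 79.9 to 90.4 on 430A and -149.9 to -128.1 on 430B. Samples near the floor limit the folds of Tie1, Vwf, Slit3 and Flt1 1451756_at, since a signal below it has no order.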

Other observations

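The transcription factors of endothelial cells differed among themselves, and they were picked from the list of other endothelial genes after their values were seen. Sox18 rose at all 3 stages, and its relative Sox7 rose at E12.5 (1.62 ± 0.28, adjusted p = 0.00206) and E13.5 (0.92 ± 0.28, adjusted p = 0.0331) and gave 0.18 ± 0.28 at E16.5. Gata2, a factor of endothelial and blood cells, rose at E12.5 (1.61 ± 0.33) and E13.5 (1.32 ± 0.33) and gave 0.06 ± 0.33 at E16.5 (adjusted p = 0.00467, 0.0113 and 0.907). Of the ETS factors, Fli1 rose at E12.5 (1.25 ± 0.36, adjusted p = 0.0289) and gave -1.87 ± 0.36 at E16.5 (adjusted p = 0.00175), Ets1 gave -1.13 ± 0.35 at E16.5 (adjusted p = 0.0223), and Erg gave 0.20 ± 0.49, -0.03 ± 0.49 and -0.70 ± 0.49 with no call. Tal1 and Lyl1, factors shared with blood cells, had no call at any stage.

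Genes that act on clotting or blood flow, picked in the same way, went different ways. Thbd, which encodes thrombomodulin, gave 0.07 ± 0.31 at E12.5 and -1.30 ± 0.31 at E16.5 (adjusted p = 0.00564), a stage at which Vwf rose by 2.51 ± 0.43. Procr gave 1.14 ± 0.43 at E12.5 (adjusted p = 0.0781). Nos3, which encodes the endothelial nitric oxide synthase, rose at all 3 stages (1.86 ± 0.32, 1.27 ± 0.32 and 1.11 ± 0.32).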
